A study of Mus musculus with 2 samples.

Results

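The receptors through which myeloid growth factors act were followed in 8 genes, Csf1r, Csf2ra, Csf2rb, Csf2rb2, Csf3r, Il3ra, Il6ra and Il6st. They were chosen by name, as all probe sets that the platform annotation assigns to them, and made up 8 of the 18193 genes represented on the array. They had 16 probe sets of their own, and 1 more was assigned to both Csf2rb and Csf2rb2. RNA came from bone marrow KLS cells of mice, the fraction without lineage markers that carries c-kit and Sca and holds stem and early progenitor cells. One Affymetrix array was from wild type mice and 1 from mice in which TIF1γ (Trim33), a transcriptional regulator, had been conditionally inactivated (TIF1γ Δ/Δ, called mutant here). The sources used here do not give the Cre line, the age or sex of the mice or how many mice each sample came from. With 1 array per genotype, each difference compares 2 samples, and no p-value, standard deviation between mice or replicate check can be given.

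Cytokines of the myeloid lineage act through 2 kinds of receptor. Csf1r is a receptor tyrosine kinase that binds macrophage colony-stimulating factor and interleukin 34, and is required for most macrophages. The others are class I cytokine receptors without a kinase of their own, which signal through JAK kinases: a ligand-specific chain pairs with a shared signalling chain. Csf2ra binds GM-CSF and Il3ra binds interleukin 3, and both pair with the common beta chain Csf2rb. The mouse has a second beta chain, Csf2rb2, which serves interleukin 3 alone. Csf3r, the receptor for G-CSF, works as a pair of identical chains and is known from neutrophils and their precursors. Il6ra binds interleukin 6 and pairs with gp130, encoded by Il6st, which many cell types share.

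Csf1r was far lower on the mutant array. Of the other 7 receptors, Csf2rb, Csf3r and Il6st were within 0.16 of 0 on the log2 scale, and Csf2ra, Csf2rb2, Il6ra and Il3ra were lower by 0.51 to 1.13. Of the 8 genes, 2 were at least 2-fold lower (Csf1r and Csf2ra) and none was at least 2-fold higher. Among all 11724 genes measured on at least 1 array, 6.01% were at least 2-fold lower and 2.53% at least 2-fold higher. The median log2 difference of the 8 genes was -0.58, against 0.000 for all measured genes, whose quartiles were -0.37 and 0.37. Without Csf1r the median of the other 7 was -0.51. A log2 difference here is the mutant signal against the wild type signal, centred on the median of all probe sets measured on both arrays, so that -1 is a 2-fold lower signal. A probe set counted as measured on an array when it reached that array's median signal, the floor: 14.4 for wild type and 11.7 for mutant. Each gene is represented by its brightest probe set, and all 8 genes were measured on both arrays by this rule.

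**Figure D1:**
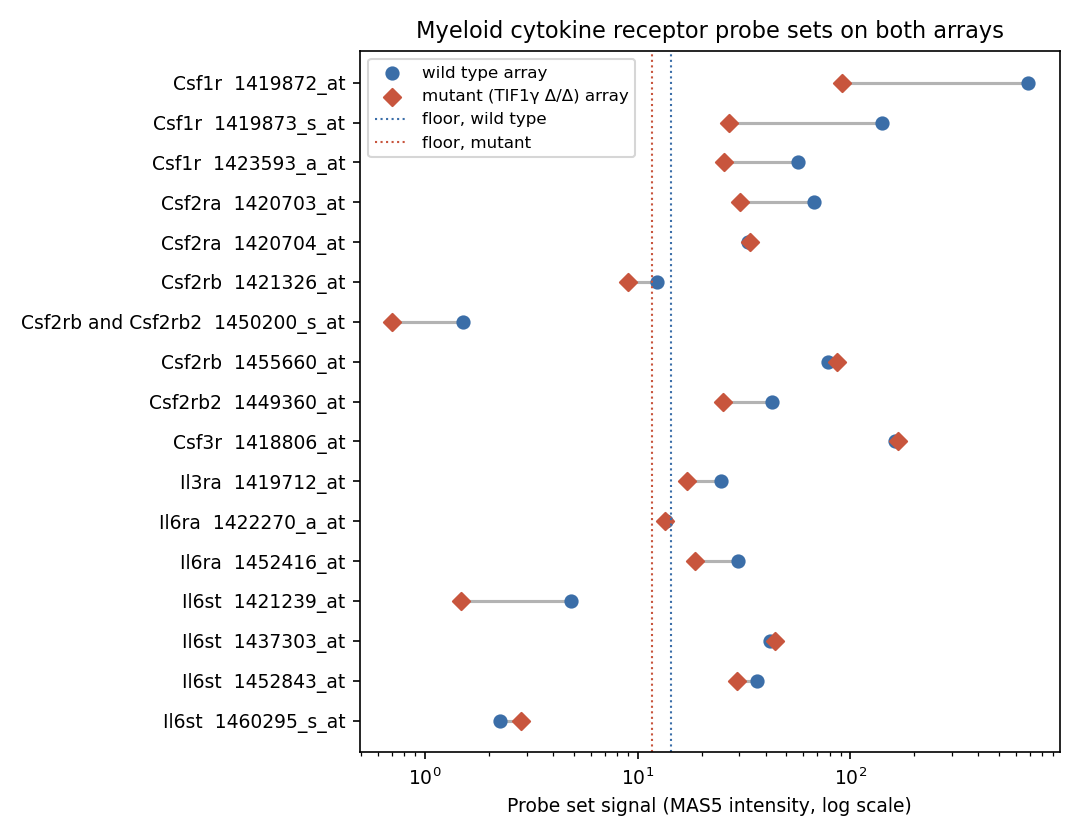
Signal of each receptor probe set (MAS5 intensity, log axis) on the wild type array (blue circles) and the mutant array (red diamonds), with the floor of each array as a dotted line. The 3 Csf1r probe sets lie well to the left on the mutant array, while Csf3r gave 163 and 168 and its symbols nearly coincide.

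Of the 16 probe sets with a single gene, 12 were measured on both arrays, 1 on the mutant array alone and 3 on neither. The probe set that Csf2rb and Csf2rb2 share, 1450200_s_at, gave 1.51 and 0.697 and did not reach either floor. Of the 13 with a difference, 4 were at least 2-fold lower, 3 of them for Csf1r and 1 for Csf2ra, and none was higher. Over all 20775 such probe sets the shares were 5.91% lower and 2.77% higher. Probe sets of the same gene disagreed with a standard deviation of 0.452 in the log2 difference over 4534 genes. That figure measures probe sets on these 2 arrays and says nothing of the spread between mice.

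Csf1r was measured by 3 probe sets, and all 3 were at least 2-fold lower. The brightest, 1419872_at, gave a signal of 684 in wild type and of 91.1 in mutant cells, which is 7.39-fold lower (log2 -2.88). Next, 1419873_s_at gave 141 and 26.9 (log2 -2.37). The dimmest, 1423593_a_at, gave 56.9 and 25.4 (log2 -1.14). It fell short of 2-fold with a pseudocount of 16 (-0.80) and with the floor at the 65th percentile (-0.89, a bound). The direction was shared, but the size ranged over 1.74 on the log2 scale. On the mutant array all 3 stayed above the floor of 11.7, so Csf1r was lower and still measured there. At least 58 of the 11724 genes had a lower difference than Csf1r. This is a minimum, since genes under the floor on the mutant array alone give only a bound. A pseudogene of Csf1r, Csf1r-ps, is annotated in the mouse genome, and whether it adds to any of these probe sets was not tested.

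By the brightest probe set of each gene, the ligand-binding chains for GM-CSF and interleukin 3 were nearer to their wild type signal than Csf1r. Csf2ra, the GM-CSF-binding chain, gave 67.6 and 30.4 with probe set 1420703_at (log2 -1.13). Its other probe set, 1420704_at, gave 33.1 and 33.8 (log2 0.05). The pair lay 1.18 apart on the log2 scale, so the count of Csf2ra among the 2-fold lower genes rests on 1 of its 2 probe sets. With the mean of all probe sets its log2 difference was -0.54, and with a pseudocount of 16 it was -0.83, both short of 2-fold. Il3ra, the interleukin 3-binding chain, had 1 probe set, which gave 24.7 and 17.1 (log2 -0.51).

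By their brightest probe sets the shared beta chains lay on opposite sides of 0, with Csf2rb inside the 0.452 scatter between probe sets. Csf2rb, through which GM-CSF, interleukin 3 and interleukin 5 all signal, gave 78.4 and 86.1 with 1455660_at (log2 0.16). Its second probe set, 1421326_at, gave 12.3 and 9.02 and was under the floor on both arrays. With all probe sets averaged, including the dim one, Csf2rb was at -0.13. Csf2rb2, the chain for interleukin 3 alone, gave 42.6 and 25.1 with its only unshared probe set (log2 -0.74, 1.67-fold), the largest difference among the receptors that did not reach 2-fold. The 2 genes are close relatives that lie side by side on chromosome 15, and the degree to which each probe set also takes up the other's RNA was not tested.

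Csf3r, the G-CSF receptor, differed between the arrays by less than the 0.452 scatter between probe sets. Its single probe set gave 163 in wild type and 168 in mutant cells (log2 0.07). Under quantile or loess scaling it was at -0.06. Against Csf3r, Csf1r was 2.95 lower on the log2 scale, and against Csf2rb it was 3.04 lower. Centring cancels in these comparisons of 2 genes within the same pair of arrays.

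Il6ra, the interleukin 6-binding chain, gave 29.5 and 18.6 with 1452416_at (log2 -0.64, 1.56-fold). Its other probe set, 1422270_a_at, gave 13.6 and 13.5, near the floor on both arrays, and was not measured on the wild type array. Il6st, the gp130 chain, gave 41.8 and 44.1 with 1437303_at (log2 0.10) and 36.4 and 29.4 with 1452843_at (log2 -0.28). Its other probe sets, 1421239_at and 1460295_s_at, gave at most 4.84 on either array and lay under the floor. Neither chain of the interleukin 6 receptor was 2-fold apart by any measured probe set.

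Most of these receptors had low signals, where the differences of all genes were more widely spread. A mean signal between 16 and 128 held 6 of the 8 genes, all but Csf1r and Csf3r, and 1 of the 6, Csf2ra, was at least 2-fold lower. Among all 4965 genes in that range 9.22% were at least 2-fold lower and 3.18% higher, and the quartiles were -0.48 and 0.38. The differences of Il3ra, Il6ra and Csf2rb2 lay below the lower quartile. Csf2rb and Il6st lay between the quartiles.

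**Figure D2:**
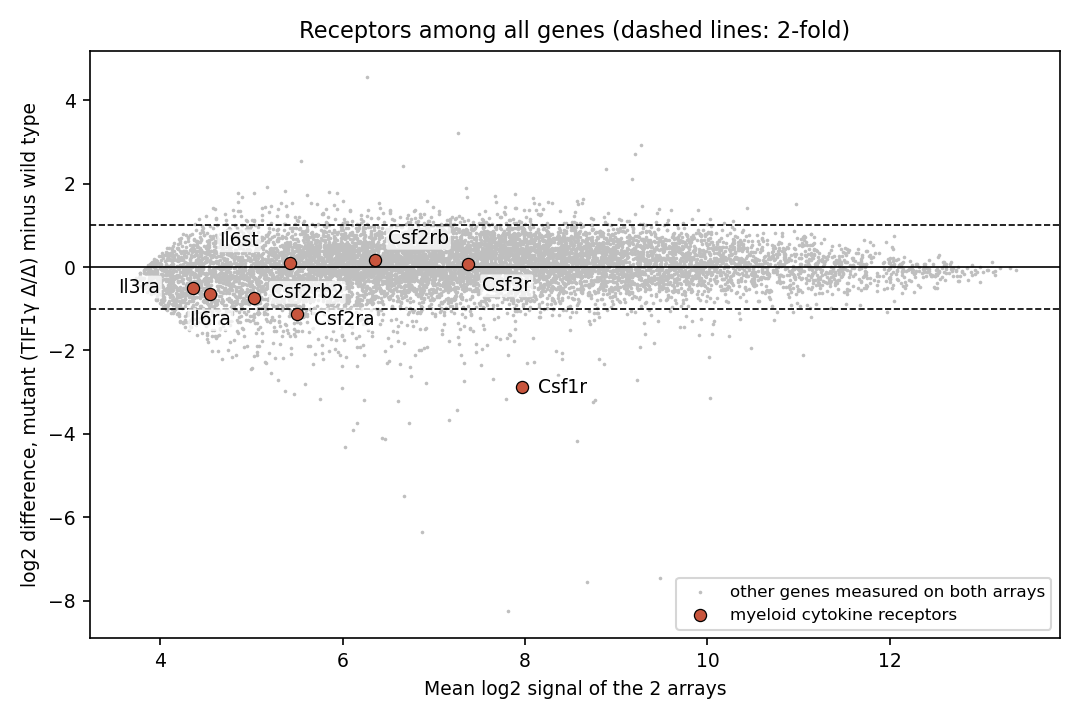
Log2 difference (mutant minus wild type) against the mean log2 signal of both arrays for genes measured on both, with the 8 receptors in red; dashed lines mark 2-fold. Csf1r at -2.88 lies below most genes though not below all. Csf2ra lies just past the 2-fold line at -1.13, and the other receptors lie inside that line.

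For the upstream region, RefSeq promoter sequences (build GRCm38.p6) were used for 6 of the 8 genes: Csf2ra, Csf2rb2, Csf3r, Il3ra, Il6ra and Il6st. Csf1r was left out of the search, and no sequence of Csf2rb was available. The counts of matches therefore say nothing of Csf1r, the receptor with the largest difference. Csf2ra and Csf3r are shown because 1 had a lower probe set and the other did not, and because PU.1, an ETS family factor of myeloid cells, is known to act at genes for myeloid growth factor receptors. The 250 bases before the annotated start were searched on both strands for GAGGAA, a core that PU.1 can bind, and matches are in capitals. The Csf2ra stretch is chr19:61228419-61228668 on the minus strand and the Csf3r stretch is chr4:126024409-126024658 on the plus strand, each read 5′ to 3′ in the direction of the gene.
Csf2ra: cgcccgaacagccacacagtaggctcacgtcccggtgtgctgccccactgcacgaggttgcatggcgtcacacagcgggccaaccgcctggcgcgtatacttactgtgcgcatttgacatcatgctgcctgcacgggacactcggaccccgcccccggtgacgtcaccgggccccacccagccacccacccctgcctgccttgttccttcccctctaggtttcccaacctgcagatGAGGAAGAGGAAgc
Csf3r: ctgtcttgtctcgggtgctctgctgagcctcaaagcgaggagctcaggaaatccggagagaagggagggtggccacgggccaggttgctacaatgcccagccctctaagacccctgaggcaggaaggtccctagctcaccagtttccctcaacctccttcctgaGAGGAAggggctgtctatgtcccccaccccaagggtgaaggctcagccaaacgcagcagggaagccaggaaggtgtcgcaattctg
Csf2ra held 2 adjoining matches, from base -14 to -3 before the start, and Csf3r held 1, from -86 to -81. Csf2rb2 and Il6ra held 1 each and Il3ra and Il6st 0, so the letters were present both in genes with lower signal and in Csf3r. Of the 32851 windows of this length that were searched, 23.3% held at least 1 match. The letters TGTGGT, which RUNX factors can bind, were in none of the 6 windows and in 14.0% of all. The pattern TTGCNNAA, a core for C/EBP factors, was in 1 of the 6, that of Il3ra, and in 9.56% of all. A match describes these letters only, and binding was not measured.

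The ligands of these receptors were mostly not measured in the sorted cells themselves. Of 13 listed ligands, 11 had a probe set of their own and 4 had a difference, with none 2-fold apart either way. Of all measured genes, 6.01% were at least 2-fold lower and 2.53% higher, so none among so few does not set the ligands apart. Neither array had Csf2, Csf3, Il3, Il5, Il6 or Il34 above its floor, the highest signal among them being 11.4 for Il6 on the wild type array. Csf1, the ligand of Csf1r, gave 21.4 and 22.4 (log2 0.09), with its 2 measured probe sets in opposite directions. Osm, a ligand that also signals through gp130, gave 96.2 and 168 (log2 0.83).

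The receptor tyrosine kinases most closely related to Csf1r did not share its difference. Flt3 gave 464 and 534 (log2 0.23) and Kit gave 384 and 495 (log2 0.39), with a second, dimmer probe set at 1.14. Pdgfrb gave 118 and 279 (log2 1.27) with 1 probe set, while its other one was under the floor, as was Pdgfra. Among other cytokine receptors, the median was -0.17 over 15 with a difference. Past 2-fold, none was higher (2.53% of all genes) and 3 were lower (20.0%, against 6.01% of all genes). These were the erythropoietin receptor Epor (65.3 to 28.8, log2 -1.16), the growth hormone receptor Ghr (log2 -1.19) and the interleukin 13 receptor chain Il13ra1. Ghr had 2 probe sets measured on both arrays, and these shared the direction, whatever their size. Il13ra1 was at least 2.13-fold lower, since it was under the floor on the mutant array. Il5ra, which also pairs with Csf2rb, was under the floor on both arrays.

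Downstream of the receptors, the genes of signalling proteins as a list lay higher, at a median of 0.35 over 30 genes. That median ranged from 0.15 to 0.38 under the alternatives, and the upper quartile of all measured genes was 0.37. Of the 30, 2 were at least 2-fold lower (6.67%, near the 6.01% of all genes) and 1 higher (3.33%, near the 2.53%). These counts do not set the list apart. Tyrobp, an adaptor of myeloid receptors, gave 1515 and 627 (log2 -1.25), and the Src family kinase Fgr gave 50.1 and 21.4 (log2 -1.20). Jak3, the kinase that pairs with the common gamma chain, gave 36.0 and 99.6 (log2 1.49). Genes induced by cytokine signals, such as Cish and members of the Socs and Pim families, had a median of 0.03. Under the alternatives that median lay between -0.06 and 0.30. None of 12 was 2-fold apart in either direction. With 6.01% of all genes lower and 2.53% higher, that count does not set the list apart. The brightest of these induced genes, Mcl1 and Ccnd2, were at -0.12 and 0.23.

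Transcription factors known at the Csf1r gene went both ways. Their median was -0.31. Of 13 with a difference, 3 were at least 2-fold lower (23.1%, against 6.01% of all genes) and 1 higher (7.69%, against 2.53%). Lower were Maf (145 to 38.7, log2 -1.88), Klf4 (log2 -1.67) and Tfec (log2 -1.13), all known from macrophages. Maf and Klf4 each had 2 probe sets measured on both arrays, and these shared the direction, whatever their size. Cebpa, which drives granulocyte and monocyte commitment, was higher (24.4 to 63.1, log2 1.39). Spi1, which encodes PU.1, gave 101 and 79.6 (log2 -0.32), and Runx1 gave 165 and 206 (log2 0.34). Irf8, a factor of the monocyte and dendritic lineages, gave 742 and 406 (log2 -0.84).

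Markers of monocytes and macrophages, as a list, were lower together with Csf1r. Monocyte and macrophage markers had a median of -2.81 in the main setting, where Csf1r was at -2.88. That median includes floor bounds, and it ranged from -3.18 with no floor to -2.12 with a pseudocount of 16. Of 22 with a difference, 20 were lower by 2-fold or more (90.9%, against 6.01% of all genes). None was higher by as much, and at least 11 had a lower difference than Csf1r. The summed signal of the list was 12045 in wild type and 1830 in mutant cells. In wild type cells 22 of the 23 were measured, in mutant cells 13. Vcam1 was at least 115-fold lower, Lgals3 had a log2 difference of -6.37, C1qb was at least 42.5-fold and C1qa at least 20.8-fold lower. Signals of C1qa and C1qc were 0.503 and 0.377 on the mutant array. Csf1r, at 91.1 there, was among the genes that stayed measured, as were Ctss (720), Lyz2 (489) and Mpeg1 (144), which were named after their values were seen. In RNA from a sorted population, fewer cells of a type and less RNA per cell cannot be told apart. The part of these cells in the Csf1r difference was not tested.

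Csf3r did not follow the markers of mature neutrophils. Their median was -6.72, and 11 of 12 with a difference lay past 2-fold, all of them lower (91.7%, against 6.01% of all genes). That median includes floor bounds, and it ranged from -7.46 with no floor to -5.27 without probe sets of shared suffix. The summed signal of the neutrophil list was 34479 and 334, and 12 of the 13 genes were measured in wild type but 4 in mutant cells. The antimicrobial peptide gene Camp had a log2 difference of -8.26, and the bounds were 688-fold lower for S100a9, 268-fold for Chil3 and 188-fold for Lcn2. Itgam, a defining surface marker, was under the floor on both arrays, and Ly6g was not analysed here. Csf3r, at 163 and 168, was as high on the array with little of these transcripts as on the other. Granulocyte-monocyte progenitor genes, among which Csf3r is also known, had a median of -0.84. Past 2-fold were 3 of 11, namely Elane (log2 -2.29) and Ms4a3 (log2 -1.91) on the lower side and Cebpa on the higher. The shares were 18.2% lower and 9.09% higher, against 6.01% and 2.53% of all genes.

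Other cell type lists stood as follows beside the receptors. Erythroid genes had a median of -1.68 and 9 of 14 past 2-fold, all lower, led by Slc4a1 (log2 -3.91), Trim10 (at least 8.24-fold lower), Blvrb (log2 -2.70) and Alas2 (at least 5.79-fold lower). B cell markers had a median of -1.26, and 4 of 8 were lower by 2-fold or more: Ms4a1 (at least 10.7-fold), Vpreb1 (log2 -2.62), Igll1 (log2 -2.42) and Blnk (at least 3.88-fold). That median ranged from -2.0 with no floor to -0.52 without probe sets of shared suffix. Averaging each gene's probe sets gave -0.59, and a pseudocount of 16 gave -0.60. Igll1 had a second probe set, of 11.8 in wild type and 27.5 in mutant cells, which went the other way. For T and NK cells the marker median was -0.96, and the 4 of 8 past 2-fold were Gzma (at least 4.26-fold lower), Klrd1 (log2 -1.93), Ccl5 (log2 -1.31) and Cd3d (at least 2.38-fold lower). This median ranged from -1.26 with no floor to -0.47 with a pseudocount of 16. Megakaryocyte genes had a median of 0.53, with 3 of 11 at least 2-fold higher, Itgb3 (log2 1.34), Tubb1 (log2 1.54) and Ppbp (log2 2.42). For markers of mast cells and basophils the median was 0.32, but it was -0.11 without probe sets of shared suffix. Of the 6 with a difference, 1 was at least 2-fold higher, Gata2 (log2 1.40), and 2 were below 0, Mcpt8 (log2 -0.66) and Ms4a2 (log2 -0.51). Stem cell genes had a median of 0.13, with 2 of 16 higher, Gata2 and Tek (log2 1.02), and none lower. Its sign turned with the choice of probe set, to -0.17 when each gene's probe sets were averaged and -0.20 without those of shared suffix. Beside these counts, 6.01% of all genes were at least 2-fold lower and 2.53% at least 2-fold higher. None of these lists was tested against the receptors.

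**Figure D3:**
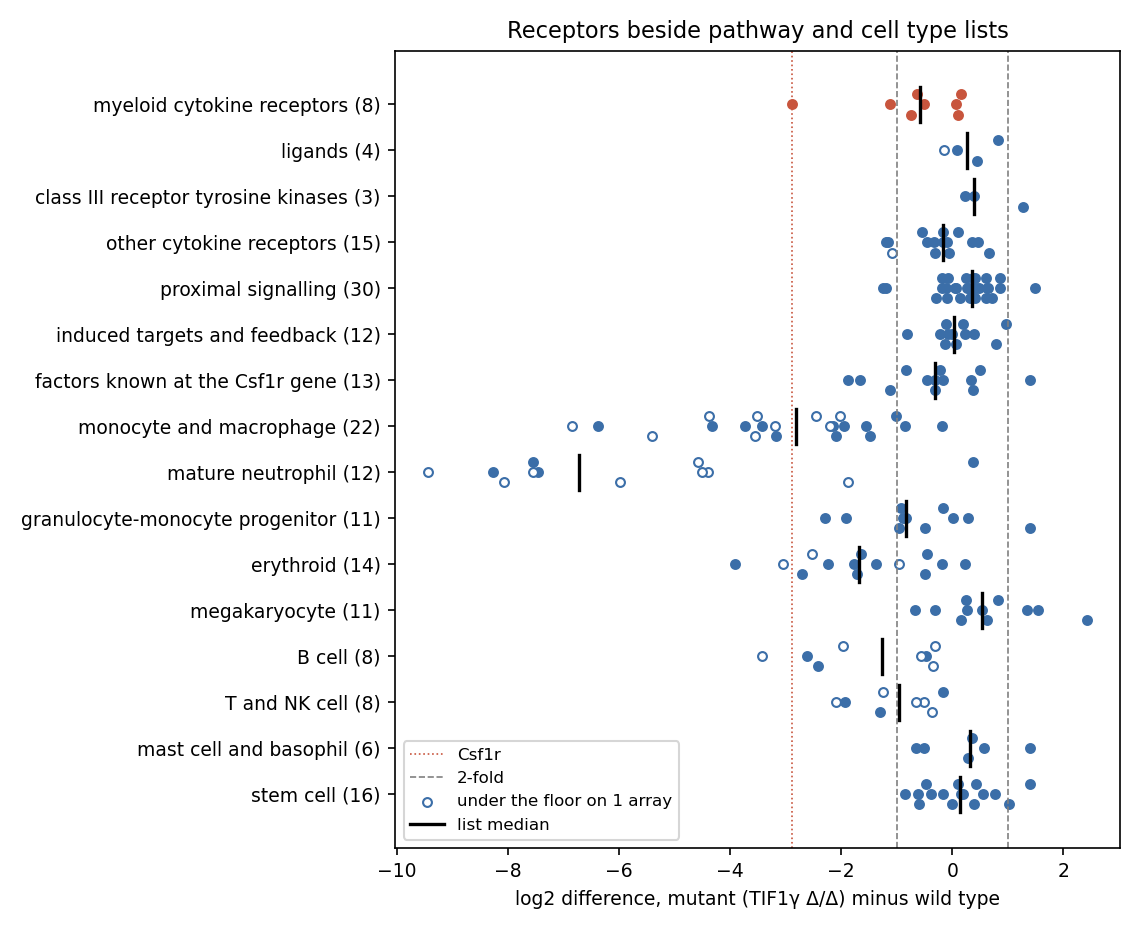
Log2 difference of each gene (mutant minus wild type) in the receptors (red) and in the pathway and cell type lists (blue), with the number of genes with a difference after each name; open symbols are genes under the floor on 1 array, black bars are medians and the dotted line is Csf1r. In the main setting the Csf1r line falls beside the median of the monocyte and macrophage list, -2.81, which includes floor bounds. The other 7 receptors lie between -1.13 and 0.16.

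The labels and RNA were checked once for all values. Trim33, the targeted gene, gave 379 and 172 with its brightest probe set (log2 -1.12) and 61.0 and 34.5 with a second (log2 -0.80). The sources used here do not say where these lie relative to the deleted part. Of the markers that define KLS cells, Kit was measured on both arrays, while Ly6a, which encodes Sca-1, was not analysed here. Cd34, which is not among the defining markers, gave 1398 and 2326. Of the lineage markers listed, Cd3e, Cd4 and Itgam reached neither floor. Others were measured in wild type cells, among them the T cell genes Cd3d (28.2), Cd8a (18.8), Cd3g (16.8) and Cd8b1 (15.3), all under the floor on the mutant array. The B cell genes Ms4a1 (127) and Cd79b (182, and 128 in mutant cells) were measured too. The 3′ probe set of Gapdh was 7.86 times as bright as the 5′ one in wild type and 7.38 times in mutant RNA, and for actin these ratios were 5.14 and 5.54. Both arrays thus favoured the 3′ end to a like degree.

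For likeness of pattern, the genes nearest to each receptor in the pair of log2 signals were found over the 2 arrays. Nearest to Csf1r were Trem3 (669 and 73.2), Prg2 (582 and 116) and Elane (611 and 123), known from myeloid cells and granulocytes, at distances from 0.318 to 0.464 on the log2 scale. Nearest to Csf2ra were Gm34006, Car13 and Osgin1, and nearest to Csf2rb2 were Hlx, Slc25a27 and Cavin3. Nearest to Csf3r were Vrk2, Nipbl and Ccdc124, and nearest to Csf2rb were Fam43a, Gins3 and Zfp59. Il6st lay closest to Inpp5e, Prss16 and Tha1, Il3ra to Tstd3, Fkbp14 and Pnpla3, and Il6ra to Sfxn4, 1700066B19Rik and Gpc4. With only 2 arrays many genes share such a pair of values. The 3 nearest genes of each receptor other than Csf1r were all within 0.0886.

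**Figure D4:**
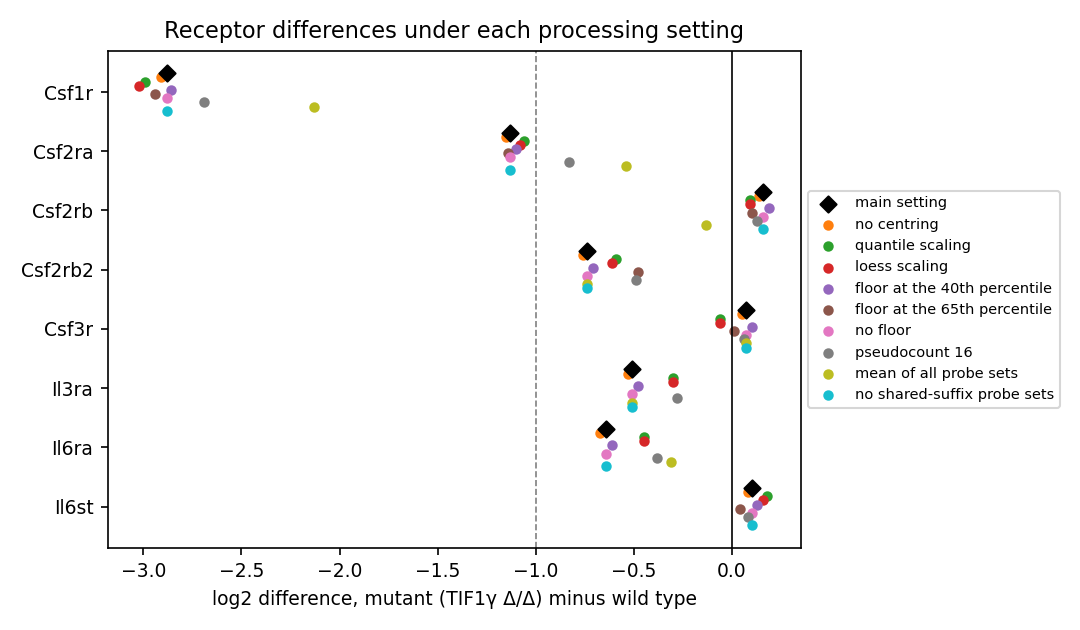
Log2 difference (mutant minus wild type) of each receptor under the main setting (black diamonds) and each alternative (coloured points); the dashed line marks 2-fold lower. Csf1r stays between -3.02 and -2.13, Csf2ra crosses the 2-fold line with a pseudocount of 16 or the mean of all probe sets, and Csf2rb and Csf3r lie on both sides of 0.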

How the data were processed

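Each of 2 samples was hybridised to 1 Affymetrix array from 25 ng of total RNA, per the labels' protocols. The deposited values are linear intensities per probe set. The submitters' processing notes name MAS5, without a version. The mean after trimming 2% at each end was 100.0 on both arrays, so the deposited intensities were already scaled. MAS5 subtracts mismatch signal, which makes low values noisy, and the number of arrays limits the precision. The 64 control probe sets were left out. Probe sets were named from the platform annotation, 34945 with 1 gene, 932 with several and 9160 with none, with symbols updated through RefSeq for 34741. The log2 difference was centred by -0.024. A signal under the floor (the array's 50th percentile) on 1 array was set to it and the result written as at least N-fold; a gene under it on the mutant array alone gives a bound, one under it on the wild type array alone need not, and genes under it on both have no difference. The receptors and gene lists were chosen with earlier results of these data known. The text names every receptor, up to 4 genes of each list past 2-fold (or 2 of its brightest) and the 3 genes nearest each receptor; other list genes given as values are background factors, ligands and markers chosen after their values were seen. Alternatives covered scaling, floor, pseudocount, probe set rule and threshold. The computation was tested on simulated data and used Python 3.11.15, numpy 2.4.6, pandas 2.3.3, statsmodels 0.14.6 and matplotlib 3.10.9.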

Additional observations from a re-analysis of the deposited data

How the results depend on the processing

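No paired analysis was possible because each genotype had 1 array, and for the same reason no array could be left out. The count of receptors at least 2-fold lower was 2, and 1 with a pseudocount of 16, with the mean of all probe sets and with a 3-fold threshold, and 4 with a 1.5-fold threshold. It was 2 under the other 7 alternatives, and the count of receptors at least 2-fold higher was 0 under all 11. Of all genes, 2.37% were 2-fold lower with the pseudocount and 6.34% with the mean of all probe sets. The share lower was 2.27% at 3-fold and 15.3% at 1.5-fold. Under the other 7 it ran from 4.45% with the floor at the 65th percentile to 16.7% with no floor. The share higher ran from 0.222% at 3-fold to 13.5% at 1.5-fold. Csf1r stayed below 0 and past 2-fold under all 9 alternatives that change values (-3.02 to -2.13), and the median of the receptors ranged from -0.6 to -0.23. Il3ra and Il6ra had no value once the floor was the 65th percentile, nor had Il6st with the mean of all probe sets. All receptors share the limit of 1 array per genotype.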

Other observations

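The genes beside the receptors on their chromosomes were read for position alone, taking the nearest gene on each side that has a probe set of its own in the mouse RefSeq annotation. Csf1r lies on chromosome 18 between Pdgfrb and Hmgxb3. Both neighbours were higher on the mutant array, Pdgfrb at 118 and 279 (log2 1.27) and Hmgxb3 at 60.9 and 91.6 (log2 0.61), while Csf1r itself was at -2.88. Pdgfrb, a related receptor kinase of stromal and vascular cells, rests on 1 of its 2 probe sets. Beside Csf2rb2, Ncf4, a subunit of the phagocyte oxidase, gave 426 and 240 (log2 -0.80), close to the -0.74 of Csf2rb2, whereas Csf2rb on the other side was at 0.16. Beside Il6ra, Atp8b2 gave 44.6 and 91.7 (log2 1.06), with 1 of its 3 probe sets above the floor. Mrps15 beside Csf3r was at 0.05, Psmd6 beside Il3ra at -0.32 and Zfp950 beside Csf2ra at -0.43. Il31ra, a receptor of the same family that lies next to Il6st, gave 16.9 on the wild type array and was under the floor on the other.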
